A study of Solanum lycopersicum with 9 samples.

Results

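Alternative oxidases are di-iron enzymes that accept electrons from ubiquinol, the reduced form of the mobile electron carrier ubiquinone, and pass them to oxygen without pumping protons. In plant mitochondria they form a branch that bypasses complexes III and IV of the cytochrome pathway, so that electrons can leave the chain when the cytochrome pathway is slowed or when the carriers are over-reduced. Transcripts of some family members are known in plants as markers of mitochondrial stress, and the same protein family also holds the plastid terminal oxidase, which oxidises plastoquinol. Here 4 of the 82125 assembled tomato sequences carried the Pfam domain PF01786 (alternative oxidase) in the deposited annotation. They were T15_1_TRINITY_DN706_c0_g2, T15_2_TRINITY_DN4579_c0_g1, T15_3_TRINITY_DN12115_c0_g1 and T15_1_TRINITY_DN35759_c0_g1. The first was chosen by its FPKM level at 30 mM p-hydroxybenzoic acid (PHBA), which was much higher than in untreated leaves, so its values at 30 mM are a description and carry no test. The other 3 were taken by the domain alone.

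Leaves of the tomato (Solanum lycopersicum) cultivar Diana were treated with 0 (untreated control), 15 or 30 mM PHBA for 2 days, starting about a month after planting, and 3 libraries were sequenced for each dose. All 9 libraries are of leaf total RNA from the same cultivar. The labels state that RNA of 1 treatment was mixed in equal parts, and separate plants or cultures behind the 3 libraries are not named. The p-values therefore rest on a spread between libraries that may be technical alone. PHBA is a phenolic acid that roots and plant residues release and that can inhibit the growth of other plants. It is also the compound from which the ring of ubiquinone, the substrate carrier of these oxidases, is built.

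The values are FPKM, a measure of fragments adjusted for sequence length and for library size. They can therefore be compared between sequences as levels. The 9 libraries had summed FPKM of 349076 to 383347, and their relative depth, estimated from rarely detected sequences, was 0.883 to 1.21 times that of control replicate 1. As a check of leaf identity, 24 chlorophyll a-b binding sequences were summed. Their summed level was 1821 to 2906 FPKM at 30 mM, against 4897 to 7559 FPKM in controls, and 4162 to 5679 FPKM at 15 mM, against the same controls. At 30 mM 19 of the 24 fell, where 2.95% of annotated sequences did, and none was at 0 in every library. The Rubisco small subunit sequence, the other leaf marker, had 50.87 to 96.43 FPKM at 30 mM, against 89.73 to 140.59 FPKM in controls. It was not called. In 14 terpene synthase sequences, taken as a marker of glandular trichomes, the sum was 8.62 to 9.55 FPKM at 30 mM, against 6.02 to 7.21 FPKM in controls. None of the 9 tested was called, where 21.1% of annotated sequences were called higher and 2.95% lower. The part of these shifts in the values below was not tested, and in a bulk sample fewer cells of a type and less RNA per cell cannot be told apart.

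All 4 sequences also carried the InterPro alternative oxidase family, and no other sequence in the annotation did. T15_1_TRINITY_DN706_c0_g2 and T15_2_TRINITY_DN4579_c0_g1 were the 2 that had, in addition, both the conserved-domain entry AOX and the PIRSF family entry for the enzyme. T15_3_TRINITY_DN12115_c0_g1 had the conserved-domain entry but not the PIRSF entry. T15_1_TRINITY_DN35759_c0_g1 had neither. The annotation does not say which of them is mitochondrial and which plastidic, and 0 of the 82125 sequence names matched the RefSeq gene table, so no tomato gene name or position is given to any. Each stood alone in the table under its assembly component. Pieces or near-identical copies of 1 gene under other component names would share reads with it.

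In untreated leaves the family was carried by T15_2_TRINITY_DN4579_c0_g1, at 7.71, 8.07 and 9.81 FPKM in replicates 1 to 3. It lay above all other members in every control library. T15_3_TRINITY_DN12115_c0_g1 came next, with 2.96, 2.24 and 3.62 FPKM. The remaining pair were lower still and overlapped each other: T15_1_TRINITY_DN35759_c0_g1 had 0.41, 0.65 and 0.76 FPKM, and T15_1_TRINITY_DN706_c0_g2 had 0.44, 0.42 and 0.71 FPKM. Among 13634 annotated sequences tested, T15_2_TRINITY_DN4579_c0_g1 stood at the 89.2th to 91.1th percentile of level in controls, and T15_1_TRINITY_DN706_c0_g2 at the 8.5th to 16.5th.

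**Figure D1:**
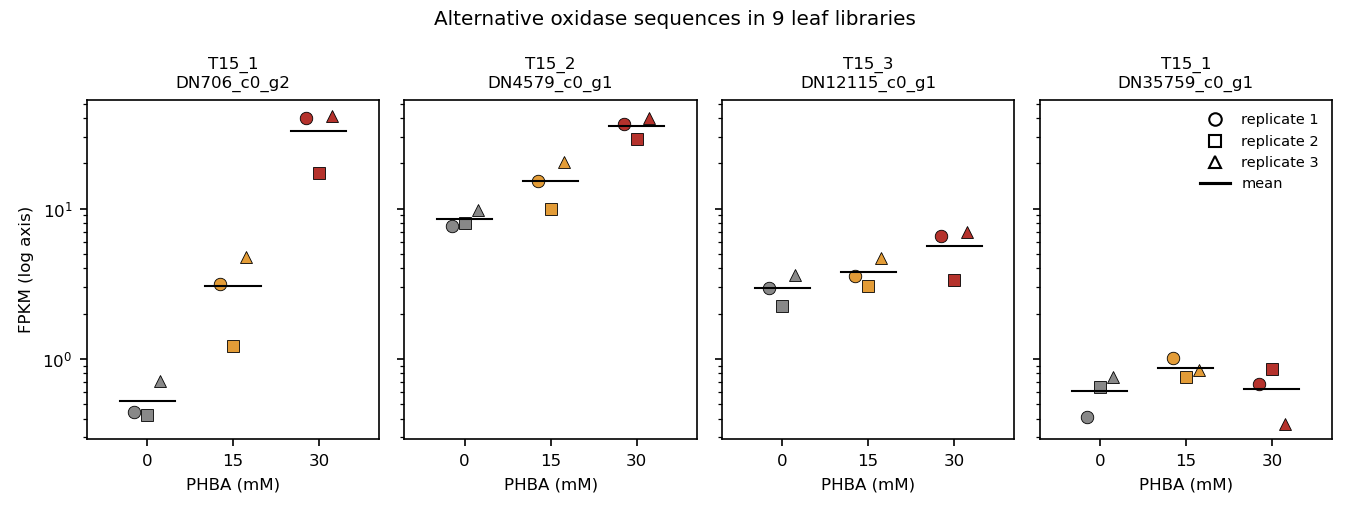
FPKM (log axis) of the 4 alternative oxidase sequences in each library, by PHBA dose in mM; marker shapes give the replicate number and bars the mean of 3 libraries. T15_1_TRINITY_DN706_c0_g2 spans 0.42 to 41.55 FPKM, while T15_1_TRINITY_DN35759_c0_g1 stays between 0.37 and 1.02 FPKM.

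T15_1_TRINITY_DN706_c0_g2 was the member with the widest range over the doses. It had 0.44, 0.42 and 0.71 FPKM in controls, 3.17, 1.21 and 4.76 FPKM at 15 mM, and 40.25, 17.27 and 41.55 FPKM at 30 mM. No library of one dose overlapped those of another, and the separations of 30 mM rest on the values that chose the sequence. Groups lay apart in the higher direction in 25.9% of all sequences at 30 mM against the control. They did in 12.6% at 30 mM against 15 mM and in 14.7% at 15 mM against the control. At 30 mM the mean was 33 ± 13.7 FPKM, against 0.523 ± 0.162 FPKM in controls (SD, n = 3 each), a ratio of means of 63.1. The log2 fold change on the log2(FPKM + 1) scale was 4.39 (SE 0.40), the 11th largest of the 44203 sequences tested, and against 15 mM it was 3.08 (SE 0.40). The added 1 FPKM compresses low values, and the 30 mM figure was 5.66 with a pseudocount of 0.1 FPKM and 2.71 with 5 FPKM. These 30 mM values chose the sequence and are not tested. At 30 mM it stood at the 93.5th to 98.2th percentile of level among annotated sequences.

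The lower dose is the comparison of T15_1_TRINITY_DN706_c0_g2 that did not choose it, although it shares the control libraries. The mean was 3.05 ± 1.78 FPKM at 15 mM, against 0.523 ± 0.162 FPKM in controls (SD, n = 3 each), a ratio of means of 5.82. The 3 treated libraries lay above the 3 controls, as they did in 14.7% of all sequences tested. The log2 fold change was 1.31 (SE 0.40, 95% interval 0.40 to 2.21) and did not pass the test (limma adjusted p = 0.311, unadjusted p = 0.00979). Over the alternatives the adjusted p was 0.0824 to 0.639, so it was called under none of them. In this comparison limma called 0.0995% of all sequences (0.0837% higher), 44 in number, and none of the 4 alternative oxidases. At an unadjusted p under 0.05, 2 of the 4 passed, against 10.4% of all sequences. The 15 mM mean covered 7.76% of the distance from control to 30 mM in FPKM and 29.8% on the log2 scale.

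T15_2_TRINITY_DN4579_c0_g1, the most abundant member in controls, rose at 30 mM. Its level was 7.71, 8.07 and 9.81 FPKM in controls, 15.22, 9.96 and 20.53 FPKM at 15 mM, and 36.42, 29.21 and 40.17 FPKM at 30 mM. The 15 mM libraries lay above all controls and below all 30 mM libraries. At 30 mM the mean was 35.3 ± 5.57 FPKM, against 8.53 ± 1.12 FPKM in controls (SD, n = 3 each), a ratio of means of 4.13. The log2 fold change was 1.92 (SE 0.24, 95% interval 1.39 to 2.46; limma adjusted p = 0.00156), with adjusted p from 9.56e-05 to 0.0105 over the alternatives. It was 1.40 after quantile normalization and 1.55 after median-of-ratios rescaling. In this comparison limma called 11.8% of all sequences, with 10% higher (21.1% of annotated ones). The groups lay apart in the higher direction in 25.9% of all sequences.

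Against 15 mM, T15_2_TRINITY_DN4579_c0_g1 rose by 1.20 on the log2 scale at 30 mM (SE 0.24, limma adjusted p = 0.0319), where limma called 3.1% of all sequences, 2.41% higher. The groups lay apart in the higher direction in 12.6%. That call was not stable. The adjusted p was 0.0528 or above in 9 of the 17 alternatives, among them 0.107 in a fit of the 6 libraries compared and 0.0659 without the filter. Leaving out control replicate 1, 2 or 3 gave an adjusted p of 0.0579, 0.0574 and 0.0531. Leaving out 15 mM replicate 1 or 2 gave 0.0962 and 0.0528, and leaving out 30 mM replicate 1 or 3 gave 0.103 and 0.104. At 15 mM against the control its mean was 15.2 ± 5.29 FPKM, against 8.53 ± 1.12 FPKM (SD, n = 3 each), a log2 fold change of 0.72 (SE 0.24, 95% interval 0.18 to 1.26). That difference did not pass the test (limma adjusted p = 0.353; 0.0923 to 0.687 over the alternatives).

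T15_3_TRINITY_DN12115_c0_g1 had 2.96, 2.24 and 3.62 FPKM in controls, 3.56, 3.07 and 4.71 FPKM at 15 mM, and 6.6, 3.37 and 6.94 FPKM at 30 mM. The groups overlapped in every comparison, and 30 mM replicate 2 lay below control replicate 3. The log2 fold change at 30 mM against the control was 0.72 (SE 0.25, 95% interval 0.14 to 1.29) and did not pass the test (limma adjusted p = 0.108, unadjusted p = 0.0199). Its direction held in every alternative that kept it, with adjusted p from 0.0221 to 0.451. Without 30 mM replicate 2 the log2 fold change was 0.99 and the adjusted p 0.0221. At 15 mM it was 0.28 (SE 0.25, limma adjusted p = 0.707).

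T15_1_TRINITY_DN35759_c0_g1 stayed low at every dose. It had 0.41, 0.65 and 0.76 FPKM in controls, 1.02, 0.76 and 0.84 FPKM at 15 mM, and 0.68, 0.85 and 0.37 FPKM at 30 mM. The 30 mM libraries spanned the controls. The log2 fold change at 30 mM against the control was 0.02 with a 95% interval of -0.38 to 0.42 (limma adjusted p = 0.968), and its sign turned after quantile normalization (-0.12) and median-of-ratios rescaling (-0.14), and without control replicate 1 (-0.07), 30 mM replicate 1 (-0.01) or 30 mM replicate 2 (-0.08). At 15 mM it was 0.23 (SE 0.18, limma adjusted p = 0.668). At such levels the added 1 FPKM compresses any change.

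**Figure D2:**
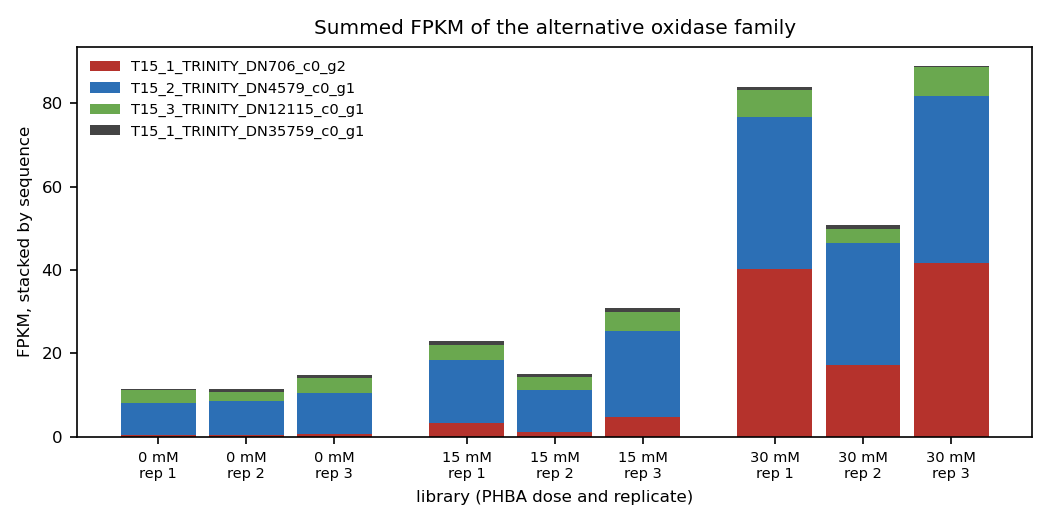
Summed FPKM of the 4 alternative oxidase sequences in each library, stacked by sequence (axis from 0), by PHBA dose in mM and replicate. The sums reach 50.7 to 89.03 FPKM at 30 mM, against 11.38 to 14.9 FPKM in controls. The sums at 30 mM include the values that chose T15_1_TRINITY_DN706_c0_g2.

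The make-up of the family differed between doses. The summed level lay between 11.38 and 14.9 FPKM in controls, between 15 and 30.84 FPKM at 15 mM and between 50.7 and 89.03 FPKM at 30 mM. T15_1_TRINITY_DN706_c0_g2 made up 3.69 to 4.77% of it in untreated leaves, 8.07 to 15.4% at 15 mM and 34.1 to 47.9% at 30 mM. T15_2_TRINITY_DN4579_c0_g1 held 65.8 to 70.9% of the sum in controls, 66.3 to 66.6% of it at 15 mM and, at 30 mM, 43.4 to 57.6%. T15_3_TRINITY_DN12115_c0_g1 held 19.7 to 25.7% of the sum in controls, 15.3 to 20.5% of it at 15 mM and, at 30 mM, 6.65 to 7.86%. At 30 mM the order of the leading pair was not fixed: T15_1_TRINITY_DN706_c0_g2 was above T15_2_TRINITY_DN4579_c0_g1 in replicates 1 and 3 and below it in replicate 2. At 15 mM T15_1_TRINITY_DN706_c0_g2 and T15_3_TRINITY_DN12115_c0_g1 overlapped. The share of T15_1_TRINITY_DN706_c0_g2 at 30 mM follows from the values that chose it. The sum at 30 mM and the shares of the other members there include those values too. All of them are given as a description.

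Whether the 3 members taken by domain alone responded unequally was asked of the ratio of 2 members within a library, which no scaling of the library can move. The ratio of T15_2_TRINITY_DN4579_c0_g1 to T15_3_TRINITY_DN12115_c0_g1 was 5.52, 8.67 and 5.79 at 30 mM, against 2.60, 3.60 and 2.71 in controls. All 3 treated libraries lay above all controls, with a mean difference of 1.15 on the log2 scale (exact two-sided permutation test p = 0.1, the smallest that 3 libraries against 3 can give). The ratio of T15_2_TRINITY_DN4579_c0_g1 to T15_1_TRINITY_DN35759_c0_g1 was 53.6, 34.4 and 109 at 30 mM, against 18.8, 12.4 and 12.9 in controls, a mean difference of 2.02 on the log2 scale (exact permutation test p = 0.1). The ratio of T15_3_TRINITY_DN12115_c0_g1 to T15_1_TRINITY_DN35759_c0_g1 overlapped between 30 mM and control (mean difference 0.87, exact permutation test p = 0.3). Over the 9 ratio comparisons made, the smallest adjusted p of these exact tests was 0.225, so none passed, and the design could not have passed any.

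Libraries of the same dose differed in the same sense in 3 of the members. In T15_1_TRINITY_DN706_c0_g2, T15_2_TRINITY_DN4579_c0_g1 and T15_3_TRINITY_DN12115_c0_g1, replicate 3 was the highest and replicate 2 the lowest, at 15 mM and again at 30 mM. T15_1_TRINITY_DN35759_c0_g1 did not share this order. Among all sequences tested 2.43% had it at both doses, and 3.85% of annotated ones. At 15 mM alone 58.1% of annotated sequences had it, and there the first principal component of all sequences, which held 28.3% of the variance, ranked the libraries alike (0.396 for replicate 3, -9.37 for replicate 1 and -34.3 for replicate 2). At 30 mM the first component placed replicate 1 highest, at 87. The 4 sequences with the highest mean level held 26.9%, 34.3% and 44.6% of summed FPKM in 15 mM replicates 3, 1 and 2. In 30 mM replicates 3, 1 and 2 they held 42.4%, 33.5% and 37%. The part of this share in the order of the libraries was not tested. The 30 mM replicate 2 library had the lowest relative depth of all, 0.883, and the part of depth in its low oxidase values was not tested. This order was noticed after the values had been seen.

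**Figure D3:**
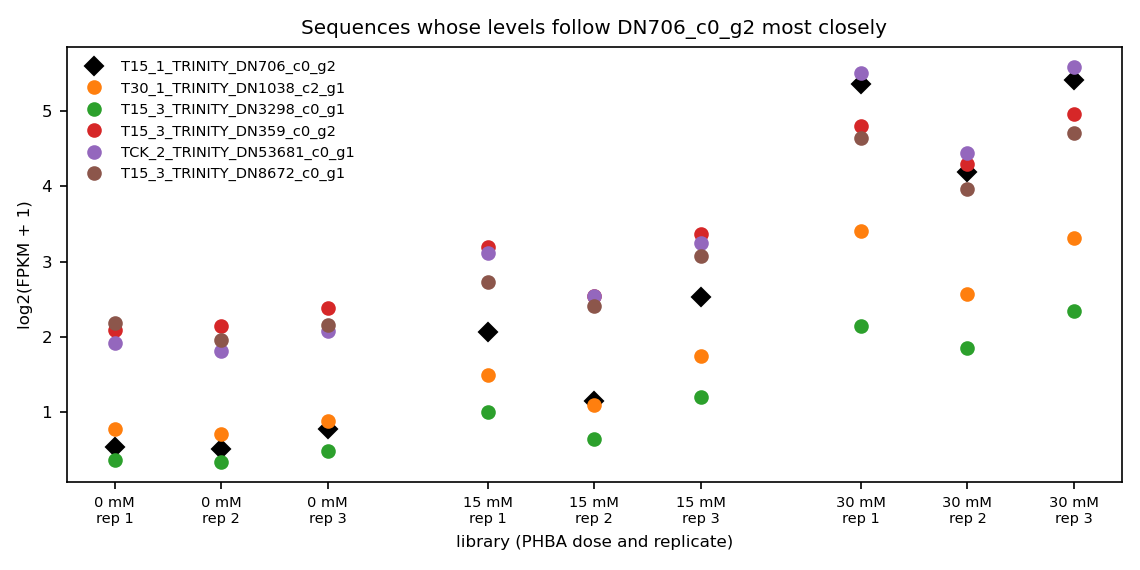
Level as log2(FPKM + 1) of T15_1_TRINITY_DN706_c0_g2 (black diamonds) and of the 5 annotated sequences closest to it, in each library by PHBA dose in mM and replicate. In all of them replicate 2 is the lowest library at 15 mM and at 30 mM, with 17.27 FPKM for the oxidase at 30 mM.

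The annotated sequences whose level was most like that of T15_1_TRINITY_DN706_c0_g2 were ranked by Pearson's r of log2(FPKM + 1) over the 9 libraries, among 10753 annotated sequences averaging 1 FPKM or more. Since all of them share the libraries and the 3 doses, and the doses lie apart, r is given as a description with no p. The median r was 0.649, and 1798 of the sequences had an r of at least 0.9. The C2H2 zinc-finger sequence T30_1_TRINITY_DN1038_c2_g1 (r = 0.998) averaged 7.83 ± 2.54 FPKM at 30 mM, against 0.723 ± 0.101 FPKM in controls (SD, n = 3 each). The protein kinase sequence T15_3_TRINITY_DN3298_c0_g1 (r = 0.998) averaged 3.36 ± 0.737 FPKM at 30 mM, against 0.31 ± 0.07 FPKM in controls. The cytochrome P450 sequence T15_3_TRINITY_DN359_c0_g2 (r = 0.997), of a family of haem enzymes that oxidise small molecules, averaged 25.3 ± 5.91 FPKM at 30 mM, against 3.63 ± 0.52 FPKM in controls.

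The other close sequences were an alcohol dehydrogenase-like sequence and a transporter. TCK_2_TRINITY_DN53681_c0_g1, with the GroES-like domain of alcohol dehydrogenases (r = 0.997), averaged 37.6 ± 14.5 FPKM at 30 mM, against 2.83 ± 0.354 FPKM in controls (SD, n = 3 each). T15_3_TRINITY_DN8672_c0_g1, an ABC transporter, of a family that moves compounds across membranes with ATP (r = 0.997), averaged 21.3 ± 5.75 FPKM at 30 mM, against 3.29 ± 0.371 FPKM in controls. Within the family, r with T15_1_TRINITY_DN706_c0_g2 was 0.988 for T15_2_TRINITY_DN4579_c0_g1, 0.848 for T15_3_TRINITY_DN12115_c0_g1 and -0.133 for T15_1_TRINITY_DN35759_c0_g1.

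Sequences of complexes I to IV, of F-type ATP synthase, of ubiquinone synthesis and of the SPFH/Band 7 family were counted from lists of Pfam domains. Of these 51 sequences in 7 lists, 21 were called higher and none lower at 30 mM against the control. The 21 are 41.2%, where 21.1% of annotated sequences were called higher and 2.95% lower. The median log2 fold change was 0.62 in the lists and 0.30 in annotated sequences. Members that were not called went down as well, to log2 fold changes of -0.74 in complex I and -0.55 in F-type ATP synthase. None of the 51 was called by limma at 15 mM against the control, where 0.132% of annotated sequences were called higher. At an unadjusted p under 0.05 in that comparison 3 of the 51 passed, against 10.4% of all sequences. At 30 mM against 15 mM 2 of the 51 were called higher, where 4.81% of annotated sequences were. The highest log2 fold change in the lists was 1.55, in an SPFH/Band 7 sequence, which lies inside the 95% interval of T15_2_TRINITY_DN4579_c0_g1. The split depends on the scale: 13 rose and 4 fell after quantile normalization, and 15 rose and 6 fell after median-of-ratios rescaling. Of the 13634 annotated sequences, 1588 rose and 1449 fell after quantile normalization (median 0.04), and 1839 rose and 1314 fell after median-of-ratios rescaling (median 0.05).

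The count of 21 also moved, from 5 to 24, with 1 library left out. It was 5, 6 and 10 without control replicate 1, 2 or 3. It was 12 without 15 mM replicate 1 and 8 without 30 mM replicate 1. Calls among all sequences moved too. Without control replicate 1, 2 or 3, 1972, 2118 and 2737 of all sequences rose, against 4425 in the full fit.

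**Figure D4:**
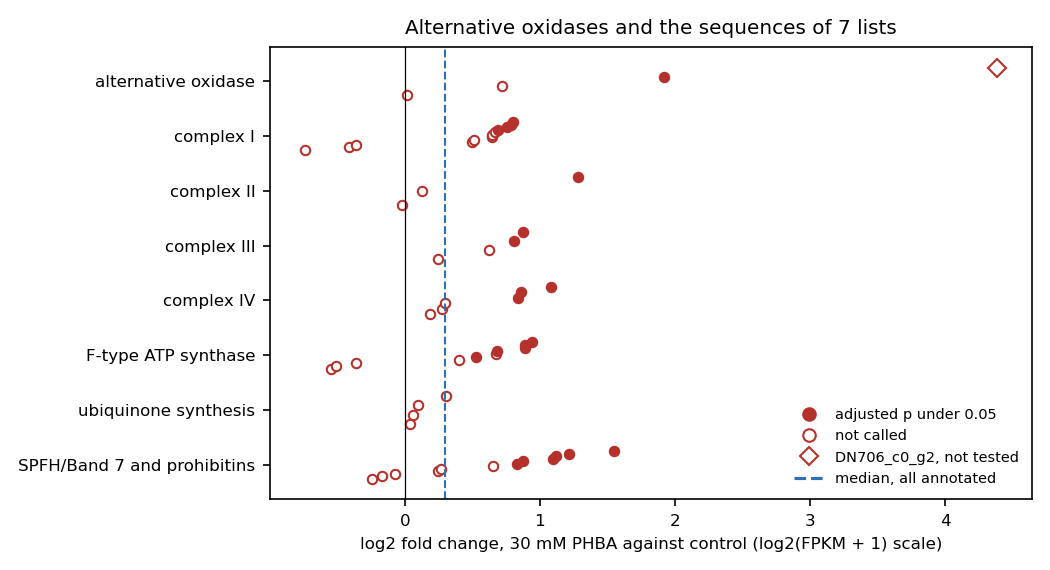
Log2 fold change at 30 mM PHBA against the control (log2(FPKM + 1) scale) for each alternative oxidase and for the sequences of 7 lists; filled circles passed the test and the dashed line is the median of all annotated sequences, 0.30. The 2 highest oxidases stand at 4.39 (diamond, chosen for this value) and 1.92, and the highest listed sequence, T30_2_TRINITY_DN37934_c0_g1, at 1.55; with a pseudocount of 0.1 FPKM that sequence was at 2.78 and T15_2_TRINITY_DN4579_c0_g1 at 2.03.

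Complexes III and IV are the route that alternative oxidases bypass. Of annotated sequences 21.1% rose at 30 mM against the control, and the counts below were not tested against that share. Of 4 complex III sequences 2 rose: the Rieske iron-sulfur sequence T15_2_TRINITY_DN15100_c0_g1, whose subunit takes electrons from ubiquinol, with 31.2 ± 8.03 FPKM at 30 mM, against 16.2 ± 0.987 FPKM in controls (log2 fold change 0.88, limma adjusted p = 0.0362), and the cytochrome c1 sequence T15_2_TRINITY_DN840_c0_g1, with 18.9 ± 4.86 FPKM, against 10.2 ± 0.404 FPKM in controls (limma adjusted p = 0.0302). Of 6 complex IV sequences, the cytochrome c oxidase that reduces oxygen, 3 rose. Its subunit VIb sequence T15_1_TRINITY_DN753_c0_g1 had 45.26, 31.77 and 28.64 FPKM at 30 mM, against 16.6, 14.7 and 16.19 FPKM in controls. The log2 fold change was 1.08 (SE 0.18, limma adjusted p = 0.00701). The subunit Vb sequence T15_1_TRINITY_DN4236_c0_g1 had a log2 fold change of 0.86 (limma adjusted p = 0.00888). The calls of these named subunits, VIb and Vb, held in all alternatives, while that of T15_2_TRINITY_DN15100_c0_g1 was lost in 8 of 17 and that of T15_2_TRINITY_DN840_c0_g1 also in 8 of 17 (adjusted p up to 0.121 and 0.104). After quantile normalization 1 complex III sequence rose and 1 fell, and 5 complex IV sequences rose and 0 fell. Of 13634 annotated sequences 1588 rose and 1449 fell there. After median-of-ratios rescaling the counts of both lists were as before. A counted complex IV sequence, not called before rescaling, also carries a photosynthetic reaction centre protein domain.

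Complexes I and II feed electrons into ubiquinone, from NADH and from succinate. The counts of these lists stand beside 21.1% of annotated sequences that rose, and were not tested against it. Of 12 complex I sequences 4 rose, led by the 2Fe-2S subunit T30_1_TRINITY_DN3258_c0_g1, with 13.3 ± 3.6 FPKM at 30 mM, against 7.08 ± 0.926 FPKM in controls (limma adjusted p = 0.0318), and the subunit G sequence T30_2_TRINITY_DN12336_c0_g2, with 9.50 ± 1.93 FPKM, against 5.03 ± 0.449 FPKM in controls (limma adjusted p = 0.0472). The 3 most abundant of the list did not pass the test. They carry the 20, 30 and 49 Kd subunit domains, which plastid-encoded NDH subunits also have, and their log2 fold changes were -0.42, -0.74 and -0.36. After median-of-ratios rescaling 3 of the list fell and 1 rose, where 1314 of 13634 annotated sequences fell and 1839 rose. Of 3 complex II sequences 1 rose, the iron-sulfur sequence TCK_3_TRINITY_DN10373_c0_g1, with 16.9 ± 6.62 FPKM at 30 mM, against 6.12 ± 1.01 FPKM in controls (limma adjusted p = 0.0383). The 3 calls named here were each lost without control replicate 1, 2 or 3, 15 mM replicate 1 or 30 mM replicate 1, the last 2 also without 30 mM replicate 2 or 3 (adjusted p = 0.0501 to 0.15). After quantile normalization all 3 were lost too (adjusted p = 0.178, 0.165 and 0.0778).

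Of 10 sequences of F-type ATP synthase, which uses the proton gradient that the alternative route does not build, 5 rose. Of annotated sequences 21.1% did. The D chain sequence T15_1_TRINITY_DN2402_c0_g1 had a log2 fold change of 0.94 (limma adjusted p = 0.0204; 0.0788, 0.0742 and 0.0612 without control replicate 1 or 2 or 30 mM replicate 1). The OSCP sequence T15_2_TRINITY_DN10670_c0_g1 had 0.89 (limma adjusted p = 0.00657; 0.0731 after quantile normalization). Before any rescaling none of the list was called lower. T30_1_TRINITY_DN51117_c0_g1, the most abundant of the list, T15_3_TRINITY_DN742_c0_g1 and T15_3_TRINITY_DN56363_c0_g1 had log2 fold changes of -0.55, -0.36 and -0.51 (limma adjusted p = 0.0886, 0.0938 and 0.139). After both rescalings falls were called as well, 2 rising and 2 falling after quantile normalization and 3 each after median-of-ratios rescaling. Of 13634 annotated sequences, 1588 rose and 1449 fell after the former, and 1839 rose and 1314 fell after the latter. This list mixes mitochondrial and plastid subunits.

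Of 12 SPFH/Band 7 sequences, the family of prohibitins and other membrane scaffold proteins, 6 rose, where 21.1% of annotated sequences did. T30_2_TRINITY_DN37934_c0_g1 had 3.71, 2.41 and 3.24 FPKM at 30 mM, against 0.45, 0.15 and 0.62 FPKM in controls (log2 fold change 1.55, SE 0.22, limma adjusted p = 0.00328). The groups did not overlap, as in 25.9% of all sequences in the higher direction. At the low levels of this sequence the log2 fold change moved to 2.78 with a pseudocount of 0.1 FPKM and 0.58 with 5 FPKM. T15_1_TRINITY_DN2777_c0_g1 had a log2 fold change of 1.22 (limma adjusted p = 0.0155; 0.0646 without control replicate 1). None of 4 ubiquinone synthesis sequences was called by limma in any comparison. Of annotated sequences 0.132% were called higher at 15 mM and 21.1% at 30 mM against the control, and 4.81% at 30 mM against 15 mM. The count was not tested against those shares. The 4 ubiquinone synthesis sequences carry Coq4, ubiE/COQ5 or COQ9 domains, and the list does not cover the whole pathway. Their control means were 0.497 to 2.80 FPKM, where the added 1 FPKM compresses change. Their log2 fold changes at 30 mM against the control were 0.04 to 0.31 (median 0.08, and -0.07 and -0.10 after the quantile and median-of-ratios rescalings), and the COQ9 sequence T15_1_TRINITY_DN10686_c0_g2 was the highest, with 3.74 ± 0.828 FPKM, against 2.80 ± 0.37 FPKM in controls (limma adjusted p = 0.27). The lists for cytochrome c and for alternative NAD(P)H dehydrogenases matched no sequence of the annotation and give no result.

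**Figure D5:**
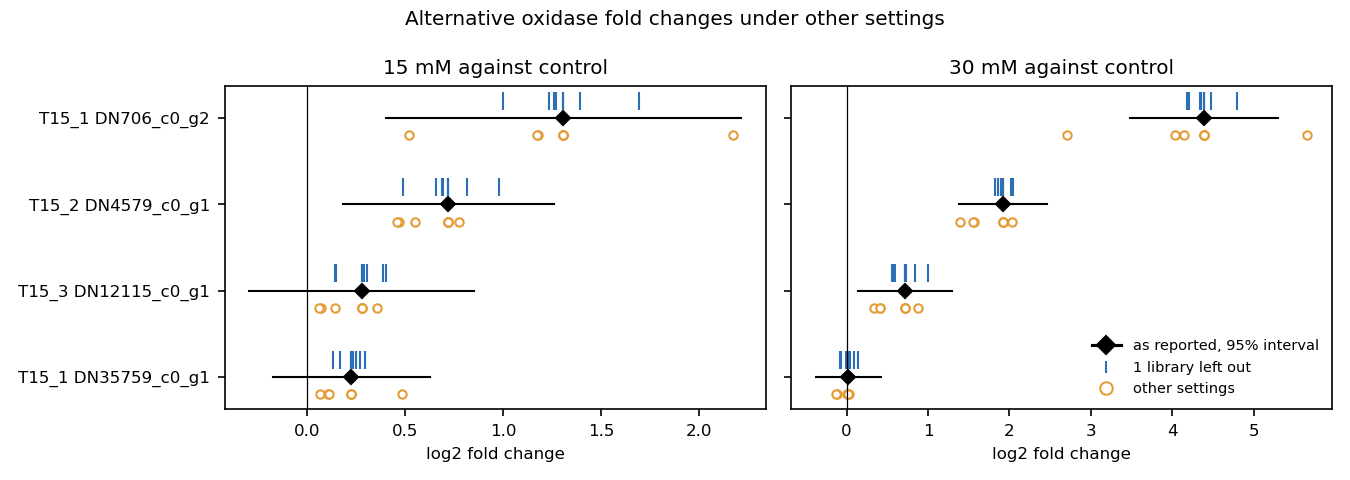
Log2 fold change of each alternative oxidase against the control, at 15 mM (left) and 30 mM (right): diamonds with 95% intervals as reported, ticks with 1 library left out, circles under the other settings. At 30 mM T15_2_TRINITY_DN4579_c0_g1 stays between 1.40 and 2.05, and at 15 mM T15_1_TRINITY_DN706_c0_g2 ranges from 0.52 to 2.17.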

How the data were processed

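Leaf RNA of 9 libraries (3 per dose) was measured. The authors deposited FPKM values with 2 decimals for 82125 sequences. Names containing TRINITY point to that assembler, per the file headers. Trimmomatic 0.36, FastQC 0.11.5, RSEM and DESeq are listed, without roles, per the submitters' processing notes. Mapper and filters: not given in the sources used here. The domain annotation (15048 lines) is a deposited text file with no values; 0 value columns were left unused. Read counts were not used, so no counting interval is given.

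Sequences were kept if 3 or more libraries had 0.5 FPKM or more (44203, with all 4 alternative oxidases). With limma 3.58.1 (R 4.3.3), log2(FPKM + 1) of all 9 libraries was fitted for 3 groups (6 residual degrees of freedom) with a mean trend, two-sided, Benjamini-Hochberg adjusted over all kept sequences, and called at an adjusted p under 0.05. The fit was tested on simulated data. Ratios and r were computed in Python 3.11.15. Relative depth is the modal FPKM ratio of control replicate 1 to a library over sequences detected in 4 libraries or fewer. Named were all members, the 5 sequences most like T15_1_TRINITY_DN706_c0_g2 and, per list, the 2 largest rises and falls called. The COQ9 sequence, the 3 complex I domains and the ATP synthase sequences with negative log2 fold changes were named after their values were seen. Markers of pollen (Ole e 1) and fibre cells (fasciclin) and the Rubisco small subunit were also counted: 0 rose and 1 fell of 6, 1 and 1 of 11, and 0 and 0 of 1 at 30 mM. Of annotated sequences 21.1% rose and 2.95% fell in that comparison, and the marker counts were not tested against those shares. The members and lists were chosen with earlier results of these data known. Alternatives were the pseudocount, the filter, 2 rescalings, a 2-group fit, a replicate block and leaving out each library.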

Additional observations from a re-analysis of the deposited data

How the results depend on the processing

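The rise of T15_2_TRINITY_DN4579_c0_g1 at 30 mM against the control kept its direction and its call in all 17 alternatives. Its call against 15 mM was lost in 9, with a log2 fold change of 1.20 in the fit without the filter and in that of the 6 libraries compared, and 0.94 to 1.43 with 1 library left out. T15_1_TRINITY_DN706_c0_g2 at 30 mM against the control moved to 5.66 and 2.71 with pseudocounts of 0.1 and 5 FPKM (2.19 against 15 mM with 5 FPKM). T15_3_TRINITY_DN12115_c0_g1 became called at 30 mM with the replicate block (0.72, adjusted p = 0.041; 0.0221 to 0.451 over all alternatives) and was 0.56 to 0.99 with 1 library left out. T15_1_TRINITY_DN35759_c0_g1, never called, turned to -0.12 after quantile normalization and -0.14 after median-of-ratios rescaling, and was -0.077 to 0.14 with 1 library left out.

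Calls among all sequences at 15 mM numbered 44, and 102 and 5 with pseudocounts of 0.1 and 5 FPKM, 4 without the filter, 213 at a mean of at least 5 FPKM, 76 and 71 after quantile and median-of-ratios rescaling, 14 in the 6-library fit and 4 with the replicate block (5 to 135 with 1 library left out). At 30 mM against the control they numbered 5200 (4425 higher, 775 lower), 3401 without the filter and 2380 at a mean of at least 5 FPKM (2350 to 5773 with 1 library left out). The split became 2486 higher and 2410 lower on quantiles, 2833 higher and 2306 lower on median-of-ratios values, and the median of all sequences, 0.18, moved to -0.006 and -0.004. At 30 mM against 15 mM they numbered 1371, and 746 without the filter, 2236 and 2140 after the 2 rescalings, 403 in the 6-library fit and 851 with the replicate block (518 to 1572 with 1 library left out). Sequences of the 7 lists called higher numbered 21, with 11 without the filter and 13 after quantile normalization (5 to 24 with 1 library left out). Those called lower numbered 0, with 2 at a mean of at least 5 FPKM, and 4 and 6 after the 2 rescalings (0 to 1 with 1 library left out). The cause of these shifts was not tested. The filter at a mean of 5 FPKM left out T15_3_TRINITY_DN12115_c0_g1 and T15_1_TRINITY_DN35759_c0_g1. Same-numbered libraries deviated together no more than others (r -0.0128 to 0.0269 against -0.0272 to 0.0255), so the numbers are not taken as pairs.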
